A study of Mus musculus with 39 samples.

Results

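The genes described here are the 200 whose signal in untreated mouse blastocysts stood farthest above that of every earlier untreated stage. Untreated arrays covered GV oocytes, MII oocytes, embryos of 1, 2, 4 and 8 cells, morulae and blastocysts, with 3 arrays a stage. For each of 34797 gene names the brightest probe was taken, and the members were the 200 genes with the largest excess, the blastocyst mean minus the highest mean of the other 7 stages. The question was whether embryos exposed to a histone deacetylase inhibitor expressed these genes early, before they had reached the 8-cell stage.

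The embryos came from B6D2F1 x ICR in vitro fertilization, and each array held RNA from 100 oocytes or embryos. T247, an inhibitor selective for HDAC3, or MGCD0103, an inhibitor selective for class I HDACs, was given at 10 µM for 6 h from 4 h post-insemination (hpi). Collection was at 12 hpi (1-cell), 24 hpi (2-cell) or 48 hpi (4-cell), with 3 biological replicates a group. Both inhibitors were measured beside untreated control embryos at 12 and 24 hpi, and T247 alone at 48 hpi. Untreated embryos lay on slides 1 to 3, T247 embryos on slides 4 and 5 and MGCD0103 embryos on slide 6, so slide and treatment cannot be told apart.

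The blastocyst is the stage at which the embryo first holds differentiated cells. Its outer trophectoderm is a polarized epithelium that pumps fluid into the cavity and later implants, and the inner cell mass gives rise to the epiblast and the primitive endoderm. Histone deacetylases remove acetyl groups from histone tails, so blocking them lets acetyl marks build up, and such marks are common at active genes. In RNA from whole embryos, fewer cells of a type and less RNA per cell cannot be told apart.

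Levels below are scaled log2 signals, the log2 signal minus the 75th percentile of its array, so 0 is the level of a fairly bright probe. A gene counted as detected in a group when each of the 3 arrays passed the scanner software's test for a signal well above background. A gene was called when limma gave a Benjamini-Hochberg adjusted p below 0.05 over 25224 genes, the log2 difference was at least 1 in size and the probe was detected in the brighter group. A log2 difference is abbreviated LFC and is given with its standard error.

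Promoters are shown for 4 of the members that rose with both inhibitors at the 2-cell stage, namely those with the largest mean LFC that had a promoter entry. They are the 150 bases before the first listed start, 5′ to 3′ on the gene's strand, with GC boxes (GGGCGG or its complement CCGCCC) in capitals, from RefSeq on GRCm38.p6. Gata2 lies at chr6:88193741-88193890 on the plus strand, Foxa2 at chr2:148046970-148047119 on the minus strand, Stard8 at chrX:99042431-99042580 on the plus strand and Ifnar2 at chr16:91372633-91372782 on the plus strand.
Gata2: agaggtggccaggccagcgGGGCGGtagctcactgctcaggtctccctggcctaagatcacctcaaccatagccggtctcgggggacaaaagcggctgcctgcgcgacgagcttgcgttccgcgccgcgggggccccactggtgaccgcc
Foxa2: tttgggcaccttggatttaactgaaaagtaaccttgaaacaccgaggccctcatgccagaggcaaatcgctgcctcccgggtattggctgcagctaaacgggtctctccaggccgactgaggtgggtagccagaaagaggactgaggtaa
Stard8: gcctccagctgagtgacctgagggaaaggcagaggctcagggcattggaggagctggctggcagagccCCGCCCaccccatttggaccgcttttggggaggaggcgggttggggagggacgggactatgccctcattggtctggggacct
Ifnar2: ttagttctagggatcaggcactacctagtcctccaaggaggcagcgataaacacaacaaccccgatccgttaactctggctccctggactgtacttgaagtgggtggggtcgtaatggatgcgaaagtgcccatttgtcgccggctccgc
The windows differ in composition, with 14 CpG dinucleotides in that of Gata2, 5 in Foxa2, 4 in Stard8 and 8 in Ifnar2. A GC box stood in the Gata2 window and in the Stard8 window.

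Over the 300-base promoters, 144 of the 186 named members had an entry. A GC box was present in 46.5% of them, in 46.2% of the 39 called higher in T247 2-cell embryos, in 43.9% of the 41 called higher in MGCD0103 2-cell embryos and in 35.9% of all 27025 promoters. It was present in 48.4% of the 95 members that rose with neither inhibitor at the 2-cell stage. A CCAAT box (CCAAT, either strand) was present in 26.4% of the members and in 37.9% of all promoters, a TATA box (TATAAA, either strand) in 12.5% and 14.2%, and a GATA motif (AGATAA, either strand) in 10.4% and 11.4%. The median number of CpG was 10 in the members that rose with T247, 9 in those that rose with MGCD0103, 11 in the 95 members that rose with neither at the 2-cell stage and 7 over all promoters. These shares describe the letters in the windows.

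The members were a mixture of enzymes, transcription factors, keratins and secreted proteins, and the rule fixed their rise at the blastocyst stage. The excess was largest for Adh1, an alcohol dehydrogenase, at 9.28 on the log2 scale. It was followed by Elf5, a transcription factor of the trophoblast, at 8.11, by H19, an imprinted noncoding RNA, at 7.74, and by Nxf7, a member of the RNA export factor family, at 7.43. The last members inside were Camk1 (excess 2.91), Pth1r (2.90) and LOC100505122 (2.89), and the next genes outside were Timp1 (2.89), Dusp9 (2.88) and Adora1 (2.88). The stage with the next highest mean was the morula for 90 members, the 8-cell stage for 28, the 4-cell stage for 28, the 2-cell stage for 24 and an oocyte or 1-cell stage for the rest.

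Many members were not silent before the blastocyst. Of the 200, 71 were detected in GV oocytes, 37 in MII oocytes, 41 in 1-cell, 53 in 2-cell, 43 in 4-cell and 52 in 8-cell embryos, 100 in morulae and all 200 in blastocysts. Of all genes tested, 81.4% were detected in GV oocytes, 69.2% in MII oocytes, 71.2% in 1-cell and 73.7% in 2-cell embryos. The share was 68.3% in 4-cell and 67.9% in 8-cell embryos, 70% in morulae and 75.9% in blastocysts. For 82 members the blastocyst was the first stage of detection, and for 25 it was the morula. The median level of the members was -5.64 in GV oocytes, -4.93 in 2-cell embryos, -3.19 in morulae and 1.44 in blastocysts. Of the 186 members with a current gene name, 21 (11.3%) lay on the X chromosome, against 3.96% of all named genes tested and 3.65% of those detected in blastocysts.

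**Figure D1:**
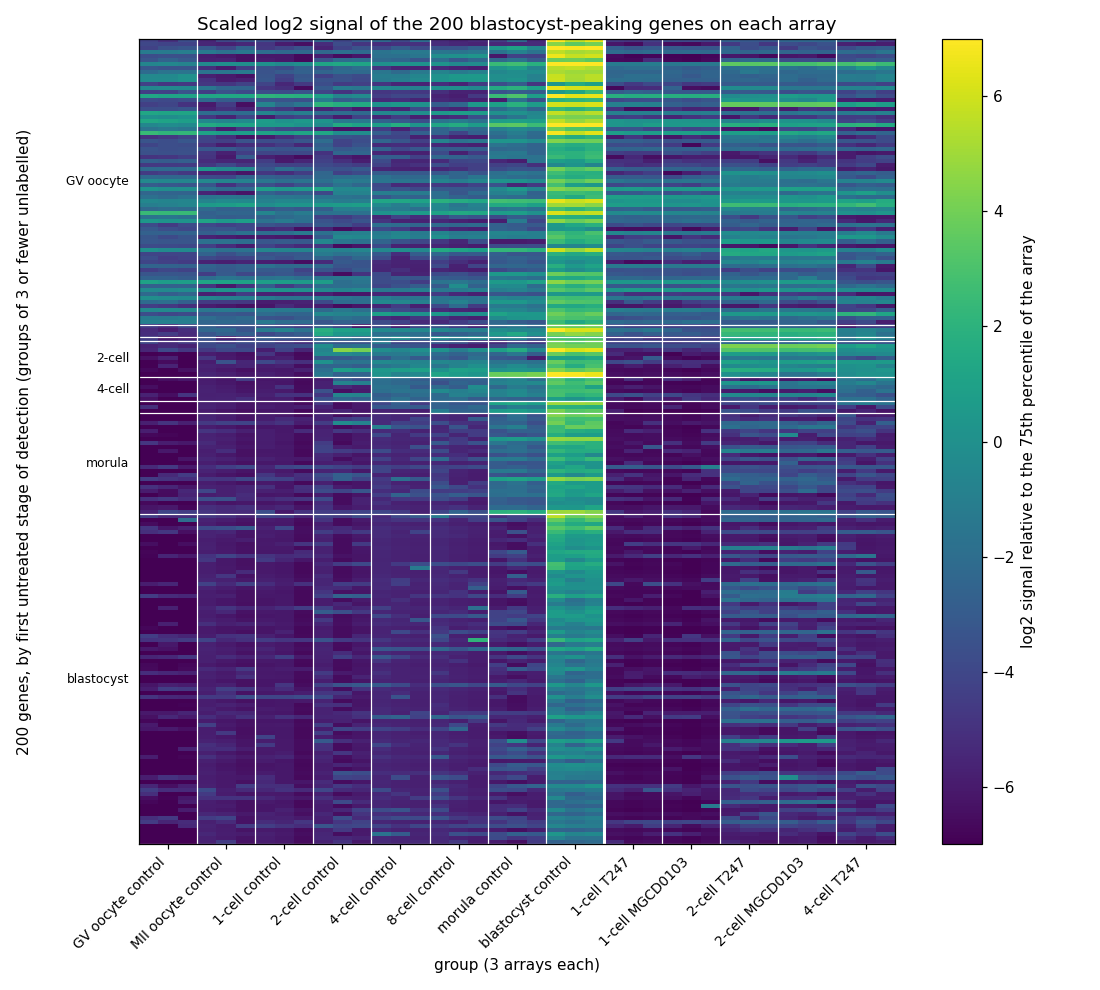
Scaled log2 signal (colour) of the 200 members (rows, grouped by the first untreated stage with detection on all 3 arrays) on 39 arrays (columns, 3 a group; the thick line separates untreated from treated groups). The blastocyst columns are bright by the rule, and of the treated columns those of the 2-cell stage have the most members detected, 101 with T247 and 99 with MGCD0103. Of all genes tested, 83.2% and 81.8% were detected in these groups. The share was 73.7% in 2-cell controls and 79.2% or less in the other treated groups.

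At the 2-cell stage more than 1 in 4 members were higher in treated than in control embryos and none were called lower. With T247, 58 of the 200 members (29%) rose, where 13.4% of all genes tested and 11.4% of those detected in blastocysts were called higher. With MGCD0103, 59 (29.5%) rose, where 14.7% of all genes and 12.4% of those detected in blastocysts were called higher. Called lower by limma were 0 members with either inhibitor, where 8.42% of all genes (10.3% of those detected in blastocysts) fell with T247 and 11.5% (14.1%) with MGCD0103. The unadjusted p in limma was below 0.05, in either direction, for more than 100 members with each inhibitor. The matching share over all genes was not taken, so this count has no comparison. The rule took genes that were low in control embryos, which leaves little room to fall, and both comparisons shared the control arrays with the rule and with each other.

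The share was also read among genes with the same starting point. Of 1407 genes detected in blastocysts but well above background on 0 of 3 control 2-cell arrays, 15.3% rose with T247 and 13.1% with MGCD0103. Among the 111 members of that kind, 25 (22.5%) and 24 (21.6%) rose. When the 200 genes were ranked by an excess taken without the control arrays of the treated stages, 63 (31.5%) rose with T247 and 66 (33%) with MGCD0103. The brightest probe of each gene was still picked over all untreated stages, so these control arrays kept a part in the choice. The median LFC of the members was 0.75 with T247 and 0.76 with MGCD0103, against 0.04 and 0.19 over all genes. With normexp background correction the counts were 28 (14%) and 23 (11.5%) members, where 5.52% and 6.32% of all genes were called higher.

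Replicate 1 of the 2-cell control embryos stood apart, with a lowest correlation to its group of 0.938, against 0.986 or more within the other 7 conditions. Without it, 59 members rose with T247, 55 of them among the 58, and 65 rose with MGCD0103, 58 of them among the 59. The share of all genes called higher rose more than the member counts did, from 13.4% to 16.5% with T247 and from 14.7% to 20.3% with MGCD0103, so the members stood less far above it. The share of signals well above background was 48.3 to 55.0% on the 2-cell control arrays, 54.1 to 58.3% on the T247 arrays and 53.3 to 58.3% on the MGCD0103 arrays, and its part in the result was not tested.

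**Figure D2:**
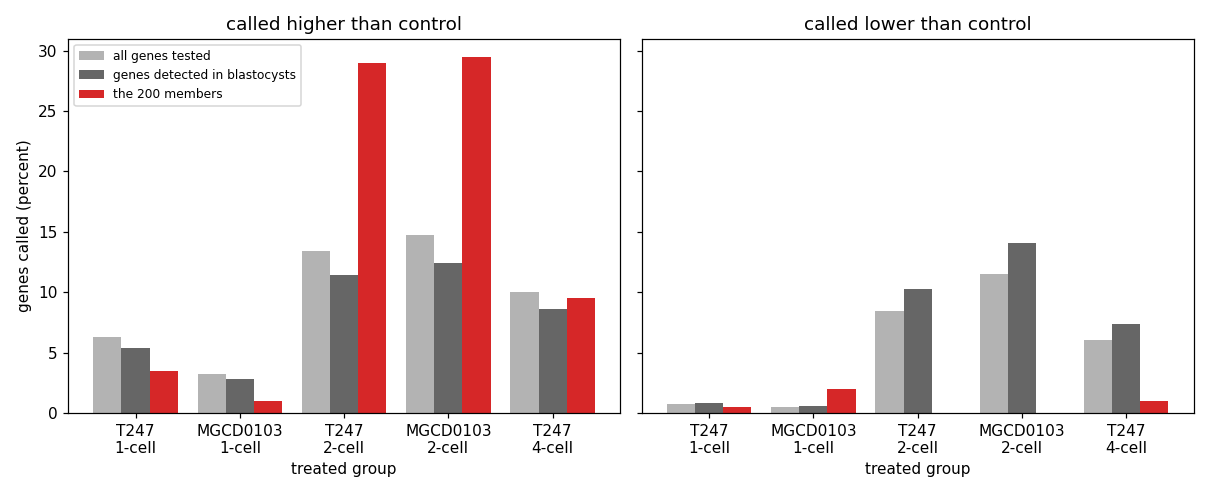
Percent of genes called higher (left) and lower (right) than control in each treated group, for all 25224 genes tested (light grey), the 19137 genes detected in blastocysts (dark grey) and the 200 members (red). At the 2-cell stage 29% and 29.5% of the members were called higher and 0 lower, and at the 4-cell stage the share of 9.5% stood beside 9.99% of all genes.

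Among the transcription factors, Gata2, a factor of the trophectoderm and of blood cells, rose most. Its level on the 3 arrays was -0.14, -1.92 and -1.77 in 2-cell control embryos, 4.30, 4.10 and 4.10 with T247 and 3.86, 3.92 and 4.06 with MGCD0103. No treated array overlapped a control array, and the treated levels lay beside the blastocyst levels of 4.23, 4.00 and 3.94. The LFC was 5.44 ± 0.33 with T247 (adjusted p = 6.9e-10) and 5.23 ± 0.33 with MGCD0103 (adjusted p = 5.3e-10).

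Foxa2, a forkhead factor of endoderm, was not well above background on any untreated array before the blastocyst. In 2-cell embryos it measured -5.71, -6.55 and -6.12 in the controls, -0.98, -0.89 and -0.85 with T247 and -1.18, -1.59 and -1.08 with MGCD0103. The rise was at least 8.35-fold with T247 (adjusted p = 8.2e-10) and at least 6.42-fold with MGCD0103 (adjusted p = 9.4e-10), since the dim controls give only a bound. Sox17, another endoderm factor, rose by 2.49 ± 0.30 and 2.12 ± 0.30, while Sox7, of the same family, was well above background on 0 of 3 T247 arrays and 1 of 3 MGCD0103 arrays and was not called. Hoxc4, a homeobox gene, was at least 4.28-fold higher with T247 (adjusted p = 3e-11) and at least 2.5-fold higher with MGCD0103 (adjusted p = 1e-10).

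Trophectoderm factors among the members did not all pass the test. Eomes, a T-box factor, had 2-cell levels of 1.51, 0.40 and 0.40 in the controls, 2.34, 2.18 and 2.17 with T247 and 1.79, 1.98 and 2.01 with MGCD0103. The treated arrays were above all control arrays, with LFCs of 1.46 ± 0.32 (adjusted p = 0.00085) and 1.16 ± 0.32 (adjusted p = 0.0051). Id2, an inhibitor of helix-loop-helix factors, rose by 1.86 ± 0.26 and 1.79 ± 0.26. Tfap2a, an AP-2 factor, was not called in 2-cell embryos, with LFCs of 0.41 ± 0.29 and 0.86 ± 0.29. Elf5, next after Adh1 by excess, was well above background on 1 of 3 control, 0 of 3 T247 and 1 of 3 MGCD0103 arrays and was not called.

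Of the epithelial genes, Krt19, a keratin of simple epithelia, measured -5.87, -6.57 and -6.19 in 2-cell controls, -1.81, -2.45 and -2.14 with T247 and -2.10, -1.5 and -1.51 with MGCD0103. No control array and all treated arrays were well above background, a rise of at least 3.57-fold (adjusted p = 5.1e-07) and at least 4.8-fold (adjusted p = 1.2e-07). Cldn3, a tight junction claudin, was called with T247 (LFC 2.74 ± 0.79, adjusted p = 0.0078) and not with MGCD0103 (1.31 ± 0.79, adjusted p = 0.17), and the difference between the inhibitors was not called. Its 2-cell controls measured -5.70, -0.71 and -0.90, and the call with T247 was lost when only the 2-cell arrays were fitted (adjusted p = 0.1). The keratin Krt7 and the desmosomal cadherin Dsg2 were not called in any treated group.

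**Figure D3:**
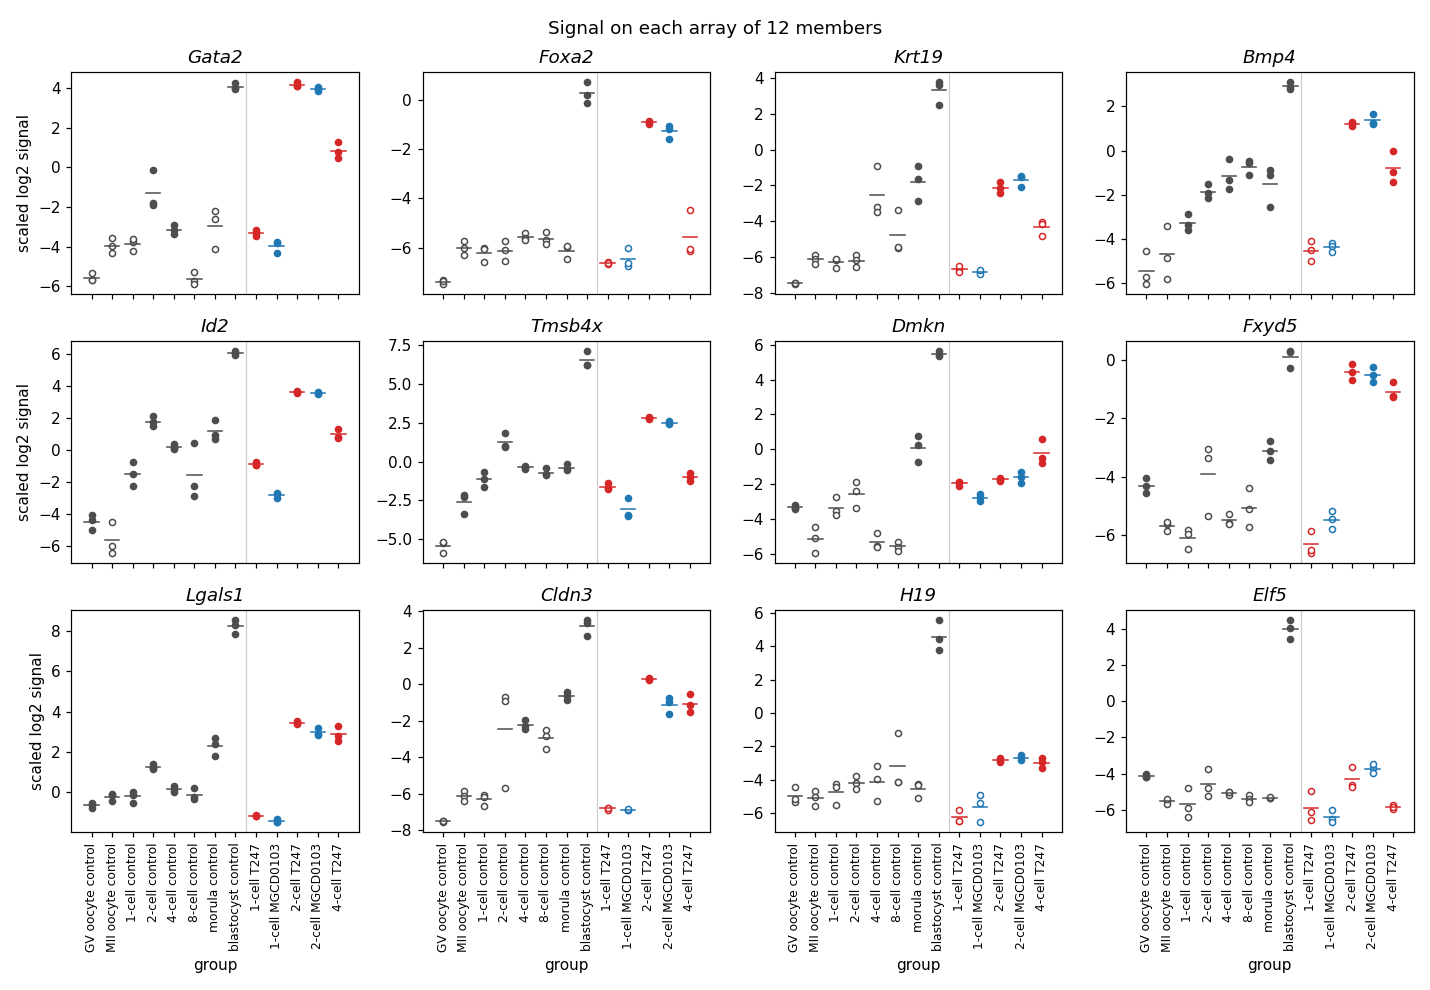
Scaled log2 signal on each array of 12 members in 13 groups (points, 3 a group; lines, means; filled points, detected on all 3 arrays; grey control, red T247, blue MGCD0103). Gata2 in treated 2-cell embryos sits at 3.86 to 4.30, beside 3.94 to 4.23 in blastocysts, whereas Elf5 sits at -3.49 or lower in every treated group.

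Signalling and transport genes were also among the members that rose. Bmp4, a growth factor of the TGF-β family, measured -1.91, -1.51 and -2.16 in 2-cell controls, 1.27, 1.1 and 1.27 with T247 and 1.18, 1.24 and 1.68 with MGCD0103. The groups did not overlap, with LFCs of 3.07 ± 0.34 (adjusted p = 7.2e-07) and 3.23 ± 0.34 (adjusted p = 3.4e-07). Fxyd5, a regulator of the sodium pump, rose by 3.49 ± 0.40 and 3.40 ± 0.40, from controls of which 2 of 3 were well above background. Atp12a, a proton pump subunit, rose by 1.40 ± 0.36 and 1.20 ± 0.36. Spp1, the secreted protein osteopontin, was at least 1.67-fold and at least 1.77-fold higher. Stard8 was at least 3.42-fold and at least 4.84-fold higher, and Wfdc12, a secreted protein with a whey acidic protein domain, at least 2.69-fold and at least 6.1-fold. Lama1, a laminin chain, Sparc, a matrix protein, Serpinh1, a collagen chaperone, and Timp3, a protease inhibitor, were not called in any treated group.

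The treated level was set beside that of the blastocyst, gene by gene. In T247 2-cell embryos 7 members were within 1 log2 unit of their blastocyst mean or above it, and in MGCD0103 2-cell embryos 9 were. The rule itself kept every earlier untreated stage at least 2.89 below the blastocyst mean, so control embryos could not reach this distance and give no comparison. With T247, Gata2 lay 0.11 and Hoxc4 0.01 above the blastocyst mean. With MGCD0103, Wfdc12 lay 0.31 above it, and the Gata2 mean minus the blastocyst mean was -0.11. Hoxc4 and Wfdc12 were dim in blastocysts, below the member median of 1.44 there, whereas Gata2 was above it. A level above every untreated stage before the blastocyst was reached by 56 members with T247 and 53 with MGCD0103 at the 2-cell stage, by 5 with each inhibitor at the 1-cell stage and by 19 with T247 at the 4-cell stage. That bar is the value from which the rule measured the excess. No such count was taken over all genes, so these counts are descriptions of the members only. The scaling sets each array to its own 75th percentile, so these distances are relative to other transcripts of the same embryos.

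Members that rose were found in most classes of first detection, and each class is given beside all genes of the same class that were detected in blastocysts. Of the 82 members first detected in blastocysts, 19 (23.2%) rose with T247 and 20 (24.4%) with MGCD0103 at the 2-cell stage, against 17.4% and 14.7% of such genes. Of the 71 detected in GV oocytes, 22 (31%) and 24 (33.8%) rose, against 10.2% and 12%. Of the 25 first detected in morulae 4 (16%) and 5 (20%) rose, against 14.7% and 11.5%. Of the 9 first detected in 2-cell embryos 7 and 5 rose, against 21.2% and 16%, and of the 3 first detected in 8-cell embryos 0 did, against 18.5% and 7.53%. On the X chromosome 10 of 21 members (47.6%) rose with each inhibitor, against 16.9% and 22.2% of the 504 X-linked genes detected in blastocysts. These shares are descriptions with no test.

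At the 1-cell stage few members responded. With T247, 7 members rose (3.5%, against 6.28% of all genes and 5.41% of those detected in blastocysts) and 1 fell (0.5%, against 0.722% and 0.805%). With MGCD0103, 2 rose (1%, against 3.24% and 2.8%) and 4 fell (2%, against 0.539% and 0.58%). Of the 140 members well above background on 0 of 3 control arrays 0 rose, where 3.87% and 1.57% of all such genes detected in blastocysts did. The median LFC was -0.30 and -0.39, against -0.07 and -0.06 over all genes, with 124 and 131 of the 200 members well above background on no array of either group. Over the other members it was 0.16 and 0.01. With normexp background correction 1 and 2 members were called in either direction, and leaving out T247 replicate 3 gave 5 with T247 in place of 8.

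Prag1, a pseudokinase listed on the array as D8Ertd82e, rose with both inhibitors. It measured -1.29, -1.47 and -1.58 in 1-cell controls, 0.96, 0.86 and 0.79 with T247 and 0.49, 0.37 and 0.60 with MGCD0103. The groups did not overlap, and the LFC was 2.32 ± 0.17 (adjusted p = 2.5e-08) and 1.94 ± 0.17 (adjusted p = 5.5e-07), but 0.93 and 0.94 as the mean of all its probes. Hcrtr1, an orexin receptor, rose by 1.46 ± 0.50 and 1.92 ± 0.50 (adjusted p = 0.043 and 0.015), and both calls were lost with the slide as a random block (adjusted p = 0.11 and 0.06). Dmkn, a secreted protein of epidermis, rose with T247 by 1.40 ± 0.36 and had an LFC of 0.59 ± 0.36 with MGCD0103.

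Bmp4 fell in 1-cell embryos and rose in 2-cell embryos. Its 1-cell levels were -2.89, -3.37 and -3.57 in the controls, -4.51, -4.08 and -4.99 with T247 and -4.17, -4.32 and -4.57 with MGCD0103. The groups did not overlap, with LFCs of -1.25 ± 0.34 (adjusted p = 0.013) and -1.08 ± 0.34 (adjusted p = 0.045), and both calls were lost with normexp background correction (adjusted p = 0.29 and 0.14). Lgals1, a galectin, had LFCs of -0.95 ± 0.17 and -1.21 ± 0.17, and the MGCD0103 difference was called. Tmsb4x, which encodes thymosin beta 4, had LFCs of -0.46 ± 0.28 and -1.93 ± 0.28, and again the MGCD0103 difference was called. Id2 measured -0.72, -2.26 and -1.49 in 1-cell controls, -0.92, -0.77 and -0.93 with T247 and -2.65, -3.0 and -2.76 with MGCD0103. The MGCD0103 arrays lay below all controls and the T247 arrays overlapped them, with an MGCD0103 LFC of -1.31 ± 0.26 (adjusted p = 0.0021).

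The change between stages was tested in the same limma model. The T247 effect was larger in 2-cell than in 1-cell embryos for 43 members (21.5%, against 6.66% of all genes) and smaller for 0 (7.07% of all genes). For MGCD0103 it was larger for 49 members (24.5%, against 8.8%) and smaller for 0 (10.1%). Both tests shared control arrays with the rule, which took genes low in those controls and so left little room for a fall in 2-cell embryos. The change was 4.33 ± 0.49 for Bmp4 with T247 (adjusted p = 4.5e-06) and 4.30 ± 0.49 with MGCD0103 (adjusted p = 2.5e-06). For Foxa2 it was 5.63 ± 0.46 and 5.09 ± 0.46, values that depend on dim arrays.

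The 4-cell stage was measured with T247 alone, and how the members' share compared with that of all genes there depended on how the members were chosen. With T247, 19 members rose (9.5%, against 9.99% of all genes and 8.59% of those detected in blastocysts) and 2 fell (1%, against 6.01% and 7.39%). The median LFC was -0.08 against -0.08 over all genes, with 100 of the 200 members well above background on no array of either group. Over the other members the median was 0.65, and no such median was taken over all genes. With the excess taken without the control arrays of the treated stages 29 of 200 (14.5%) rose, against the same 9.99% of all genes. Among the 89 members that pass the study's filter 13 (14.6%) rose, against 9.78%. In the authors' log2 values, which hold 27 members, 7 (25.9%) rose, against 9.68%, and with normexp background correction 6 (3%) rose, against 3.95%. Of the 131 members well above background on 0 of 3 control 4-cell arrays 8 (6.11%) rose, against 11.6% of such genes detected in blastocysts. The T247 effect was smaller than in 2-cell embryos for 42 members (21%, against 10.4%) and larger for 6 (3%, against 9.58%). Of the 58 members that rose in 2-cell embryos 10 (17.2%) also rose in 4-cell embryos, which is 52.6% of the 19. Over all genes tested the shared calls were 33% of those higher in 2-cell and 44.2% of those higher in 4-cell embryos.

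Gata2 was among the 10, with 4-cell levels of -2.90, -3.16 and -3.37 in the controls and 0.77, 1.28 and 0.46 with T247. The groups did not overlap, and the LFC was 3.98 ± 0.33 (adjusted p = 5.7e-08), a change of -1.47 ± 0.47 from the 2-cell effect (adjusted p = 0.023). Fxyd5 was at least 4.88-fold higher (adjusted p = 1.6e-07), Lgals1 rose by 2.73 ± 0.17 and Rnf128, a ubiquitin ligase, by 2.75 ± 0.20. Foxa2 and Krt19 were well above background on 0 of 3 T247 4-cell arrays.

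Dmkn had the largest LFC of the members in 4-cell embryos. It measured -4.80, -5.53 and -5.64 in the controls, none well above background, and -0.79, 0.59 and -0.52 with T247, a rise of at least 8.86-fold (adjusted p = 1.1e-08). Its 2-cell LFC with T247 was 0.82 ± 0.36 and was not called. Tfap2a rose by 1.73 ± 0.29 (adjusted p = 0.00011), from controls of which 1 of 3 was well above background. Lxn, a carboxypeptidase inhibitor, rose by 1.08 ± 0.28 in 2-cell embryos with T247 and fell in 4-cell embryos (LFC -1.13 ± 0.28, adjusted p = 0.0028).

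**Figure D4:**
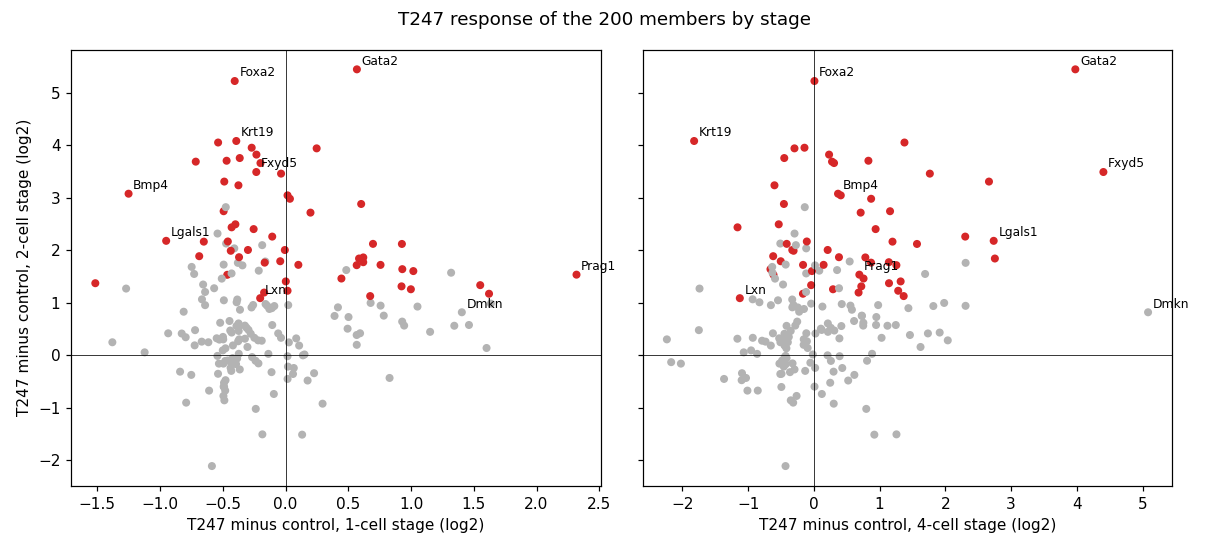
T247 minus control (LFC) of the 200 members at the 2-cell stage (vertical axis) against the 1-cell stage (left) and the 4-cell stage (right); red points are the 58 members called at the 2-cell stage and grey points the others. Gata2, Fxyd5 and Lgals1 are high in both 2-cell and 4-cell embryos, Foxa2 is high in 2-cell embryos with 0.01 in 4-cell embryos, and Dmkn is high in 4-cell embryos. Values of genes near background depend on the floor of the arrays.

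The inhibitors, given at the same dose and time, were compared directly on arrays that the rule did not use. In 1-cell embryos 2 members (1%, against 0.198% of all genes) were lower with MGCD0103 than with T247 and 0 higher (0.00793% of all genes). These were Id2 (LFC -1.93 ± 0.26, adjusted p = 0.003) and Tmsb4x (LFC -1.47 ± 0.28, adjusted p = 0.022). In 2-cell embryos 3 members (1.5%, against 3.12%) were lower with MGCD0103 and 0 higher (0.94%), namely Tceal9 (listed as Wbp5, LFC -1.47 ± 0.39), Abracl (-1.23 ± 0.36) and AA467197 (-1.16 ± 0.28). By unadjusted p below 0.05 in limma, 17 and 38 members differed in either direction, but the matching share over all genes was not taken. Of the members, 0 were called at either stage when only the arrays of the stage were fitted. For Gata2 the 2-cell difference was -0.22 ± 0.33 and for Foxa2 -0.38 ± 0.32, neither of them called. A p that misses the threshold does not show that the inhibitors act alike.

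Gene lists of blastocyst cell types, members or not, gave a mixed picture in 2-cell embryos. They are set beside all genes tested, of which 13.4% rose and 8.42% fell with T247 (median LFC 0.04) and 14.7% rose and 11.5% fell with MGCD0103 (median LFC 0.19). Of 18 trophectoderm regulators measured, 9 rose and 2 fell with T247 and 6 rose and 3 fell with MGCD0103, with medians of 0.98 and 0.87. Of 30 epithelial junction and keratin genes, 8 rose and 2 fell with T247 and 6 rose and 4 fell with MGCD0103, with medians of 0.32 and 0.60. Of 18 primitive endoderm genes 3 and 6 rose and 1 and 1 fell, with medians of 0.38 and 0.58. Of 26 inner cell mass and epiblast genes 6 and 4 rose and 2 and 4 fell, with medians of 0.16 and -0.16. Of 26 transport genes 2 and 4 rose and 4 and 8 fell, with medians of -0.40 and -0.35. Of 25 implantation and proteolysis genes 5 and 7 rose and 3 and 4 fell (medians 0.32 and 0.52), and of 21 matrix genes 3 and 1 rose and 2 and 3 fell (medians -0.07 and 0.23). Of 22 lysosome and lipid genes 2 and 2 rose and 5 and 7 fell (medians -0.36 and -0.48), and of 16 glycolysis genes 2 and 2 rose and 3 and 2 fell (medians -0.0068 and 0.23).

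Stage markers followed the labels. The median level of 17 oocyte markers was 7.37 in GV oocytes and -4.76 in blastocysts, and that of 16 transcripts of the 2-cell stage was -2.23 in 1-cell and 3.38 in 2-cell controls. In 2-cell embryos 0 and 3 of the oocyte markers rose and 1 and 1 fell, and 0 and 1 of the 2-cell transcripts rose and 2 and 5 fell. Of 12 cumulus and granulosa markers 1 rose and 1 fell with T247 and 0 rose and 1 fell with MGCD0103. Their summed linear level was 68.1 to 77.3 in 2-cell controls, 41.1 to 43.1 with T247 and 49.7 to 51.7 with MGCD0103. Only 4 of the 12 were detected in 2-cell controls, and the sum was 189.8 to 219.3 in 4-cell controls. Whether it reflects cumulus cells was not tested. Of 8 sperm markers 1 and 1 rose and 0 fell.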

How the data were processed

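Cy3-labelled cRNA of 39 samples was hybridized to 1-colour Agilent arrays. The authors deposited background-subtracted intensity values of 59305 spots from Agilent Feature Extraction (version 9.5.1.1 in the submitters' processing notes, 10.7.1.1 in the file headers). Their deposited log2 matrix (19143 probes, smooth quantile normalized, gaps filled) served as an alternative. Here the log2 signal minus the 75th percentile of its array was averaged over spots of a probe (55681 probes), and the brightest probe stood for a gene name. Genes well above background on all 3 arrays of a condition were tested (25224) by limma 3.58.1 (R 4.3.3, Benjamini-Hochberg adjustment) on the 24 arrays of the 8 treated and matched control conditions. All 200 members passed this filter, because the rule put them high in blastocysts. Where a probe was below background on every array of the dimmer group, the fold is a bound against the lowest signal well above background on each array or the probe's own, whichever was higher. Of the members 181 were named by accession, 4 by symbol, 1 by synonym and 14 not. Gene names came from 1 file, since another held 58 altered names. The fit was tested on simulated data for the 1-cell T247 comparison (25224 genes), where it recovered 86% of genes raised by 1.5 log2 units and called 4 unchanged genes. The changed genes were taken from those above the detection floor in 1-cell controls, and the noise was independent between arrays. These figures therefore do not cover members near background or a difference between slides. The members and gene lists were chosen with earlier results of these data known. Genes named are the 10 with the largest excess, up to 6 called members with the largest rise or fall in each comparison, list members and those at the threshold. No spot was saturated, 44.4 to 58.3% of signals on an array were well above background, and the number of arrays limits the precision. Alternatives covered scaling, background correction, filters, probes, members, variance models, slide, pairing and left-out arrays. Some members are not reported here by name.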

Additional observations from a re-analysis of the deposited data

Results flagged for a closer look

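Several results differed between stages or between the inhibitors by a test of the difference itself, in limma with Benjamini-Hochberg adjustment. The effect changed from the 1-cell to the 2-cell stage for 43 members with T247 and 49 with MGCD0103, and from the 2-cell to the 4-cell stage for 48 members with T247. These tests between stages shared control arrays with the rule that chose the members. The inhibitors differed for 2 members in 1-cell and for 3 in 2-cell embryos.

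Some members were called in opposite directions at neighbouring stages. Between 1-cell and 2-cell embryos the effect on Bmp4 changed by 4.33 with T247 and 4.30 with MGCD0103. Under MGCD0103 it changed by 2.92 for Lgals1, 3.15 for Tmsb4x and 3.10 for Id2. Between 2-cell and 4-cell embryos the T247 effect on Lxn changed by -2.21. The 2-cell calls of Tmsb4x were lost when all its probes were averaged, with LFCs of 0.94 for T247 and 0.65 for MGCD0103.

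Between the inhibitors, MGCD0103 minus T247 was -1.47 for Tmsb4x and -1.93 for Id2 in 1-cell embryos, and -1.47 for Tceal9, -1.23 for Abracl and -1.16 for AA467197 in 2-cell embryos.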

How the results depend on the processing

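Counts of members called moved by over 1.5 times as follows. With normexp background correction they were 1 and 2 in 1-cell embryos (T247, MGCD0103), 28 and 23 in 2-cell embryos, 6 in 4-cell embryos, 1 and 1 between the inhibitors, 30 for the MGCD0103 change between stages and 23 for the T247 change from the 2-cell to the 4-cell stage. With the authors' log2 values, which hold 27 members, they were 4 and 2, 10 and 10, 7, 0 and 1, then 6, 6 and 9 for the changes between stages. With the study's filter, which keeps 89 members, they were 34 and 36 at the 2-cell stage, 1 between the inhibitors at the 2-cell stage and 22, 27 and 25 for the changes. Both of these settings hold fewer members by construction, and the cause of the other moves was not tested. Quantile normalization gave 5 at the 1-cell stage with T247 and 10 between the inhibitors at the 2-cell stage. With the excess taken without the early controls there were 32 in 4-cell embryos and 6 between the inhibitors at the 2-cell stage, and without detection in the call 40 and 8. Between the inhibitors at the 1-cell stage there was 1 with the median scaling, the mean of all probes or slide as a random block, and 0 with only the arrays of the stage. At the 2-cell stage there were 9 with array weights, 1 with slide as a random block and 0 with only the arrays of the stage.

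Medians moved beyond the spread of replicates. For T247 at the 1-cell stage they were -0.027 (quantile), -0.50 (median scaling), -0.053 (normexp), 0.15 (authors' values) and -0.0056 (study's filter), and for MGCD0103 -0.026 (quantile), -0.16 (normexp), 0.19 (authors' values) and -0.12 (study's filter). For T247 at the 2-cell stage they were 0.58 (quantile), 0.40 (median scaling), 0.35 (normexp), 0.56 (authors' values), 0.93 (study's filter), 0.58 (mean of probes) and 0.92 (other members), and for MGCD0103 0.55, 0.41 and 0.24 with the first 3. At the 4-cell stage they were 0.47 (authors' values) and 0.37 (study's filter). Median scaling moved the median of all genes at the 2-cell stage from 0.04 to -0.31 with T247 and from 0.19 to -0.17 with MGCD0103. The change of the T247 effect on Tcf7l1 from the 2-cell to the 4-cell stage turned to -0.013 with normexp.

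Leaving out 1 array gave 5 to 9 and 4 to 8 members in 1-cell, 59 to 64 and 53 to 76 in 2-cell and 17 to 25 in 4-cell embryos, 1 to 2 and 1 to 4 between the inhibitors, and 39 to 58, 43 to 65 and 39 to 60 for the changes. A group that lost an array needed detection on its remaining arrays only, a looser rule that can raise counts. The T247 range in 2-cell embryos lies above the 58 of the full fit. Leaving out T247 replicate 1 gave the 1 between the inhibitors in 2-cell embryos, and in 1-cell embryos leaving out any T247 replicate or MGCD0103 replicate 2 or 3 gave 1. With the replicate number as a block 58 and 59 members were called at the 2-cell stage, as without pairing, and the block moved no count by over 1.5 times. Same-numbered treated and control arrays correlated weakly in their deviations, between -0.131 and 0.168. With 3 arrays a group and treated and control arrays on separate slides, this cannot exclude that the numbers pair the samples.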
